A study of Bos taurus with 16 samples.

Results

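Septins are GTP-binding proteins of the cytoskeleton, and the 7 septin genes SEPT2, SEPT6, SEPT7, SEPT8, SEPT9, SEPT10 and SEPT11 were followed in cumulus and granulosa cells of cattle (Bos taurus). They were taken by name from the count table, which holds 36824 gene entries, 13 of them with a septin symbol. Ensembl entries with nearly the same counts as the members are described below. The table uses the older symbols, and the current names are SEPTIN2, SEPTIN6 and so on. Cumulus cells surround the oocyte and were collected with it, while granulosa cells line the wall of the follicle. Ipsilateral follicles shared their ovary with the corpus luteum, the gland that secretes progesterone once a follicle has ovulated, and contralateral follicles came from the opposite ovary. Cumulus and granulosa cells from each side made 4 groups, with 4 libraries each. Per the design text, each pool came from 3 animals. The labels used here state no breed, age or hormone treatment of the animals, or which animals went into which pool.

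Septins join end to end into rods with a fixed subunit order, and the rods pair into filaments and rings at the plasma membrane, along actin bundles and at the cleavage furrow of dividing cells. Work in human cells sorts them into subgroups by sequence. SEPT2 stands in a subgroup with SEPT1, SEPT4 and SEPT5. SEPT6, SEPT8, SEPT10, SEPT11 and SEPT14 form another, and SEPT9 belongs with SEPT3 and SEPT12. SEPT7 is alone in its subgroup and is part of every standard rod. The longer form of the rod takes a member from each subgroup, and members of a subgroup can stand in for each other. The mix of septins in a cell thus sets which rods it can build. In oocytes of several mammals septins are known for their place at the spindle and in polar body extrusion, while their part in follicular somatic cells is less described.

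The libraries held 10.1 to 21.9 M counts. All 7 genes passed the filter on low counts, with 116 to 9376 counts per library. Levels are CPM (counts scaled to the library total, with TMM factors between libraries). They serve to compare a gene between libraries, not genes with each other, because the counts were not divided by transcript length. Few of the marker genes of the labelled cell types could be followed, since most entries carry Ensembl numbers that the reference does not name. Of 13 granulosa and cumulus markers 0 were found by name, so the labels were not checked in that way. Oocyte markers (2 of 10 found, H1FOO and BCL2L10) stood apart in contralateral cumulus library 4, where they summed to 204 CPM. Contralateral cumulus library 2 held H1FOO at 8.96 CPM and BCL2L10 at 9.64 CPM, and the lowest sum in that group was 0.843 CPM. These oocyte markers summed to between 0.670 and 1.38 CPM in ipsilateral cumulus libraries. Their sum was at most 1.38 CPM in ipsilateral granulosa and at most 10.8 CPM in contralateral granulosa libraries. Motile cilium markers (3 of 4 found, HYDIN, CFAP44 and WDR63) summed to between 59.0 and 92.5 CPM over all cumulus libraries. They summed to between 0.898 and 9.18 CPM in ipsilateral granulosa libraries and between 2.22 and 60.1 CPM in contralateral ones, the highest being contralateral granulosa library 3. HYDIN carried this difference, with 67.2 ± 12.3 CPM in cumulus libraries against 3.78 ± 3.23 CPM in granulosa libraries (SD, n = 8 each). CFAP44 averaged 1.99 CPM in cumulus libraries against 4.55 CPM in granulosa libraries (adjusted p = 0.808 by edgeR). For WDR63 the cumulus mean was 0.510 CPM and the granulosa mean 2.69 CPM (adjusted p = 0.216 by edgeR). Both granulosa means rest on contralateral granulosa library 3, with CFAP44 at 32.1 and WDR63 at 19.6 CPM. The other granulosa libraries held at most 1.89 CPM of CFAP44 and 1.17 CPM of WDR63. Cumulus libraries held up to 4.65 CPM of CFAP44 and 1.01 CPM of WDR63.

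The first question was how the septins differ between cumulus and granulosa cells. SEPT6 and SEPT9 were lower in cumulus cells by 6.23-fold and 5.32-fold. SEPT2, SEPT7 and SEPT11 were also lower in cumulus cells, by 1.91-fold, 1.71-fold and 1.25-fold. SEPT8 and SEPT10 did not pass the test, and no member was higher in cumulus cells.

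**Figure D1:**
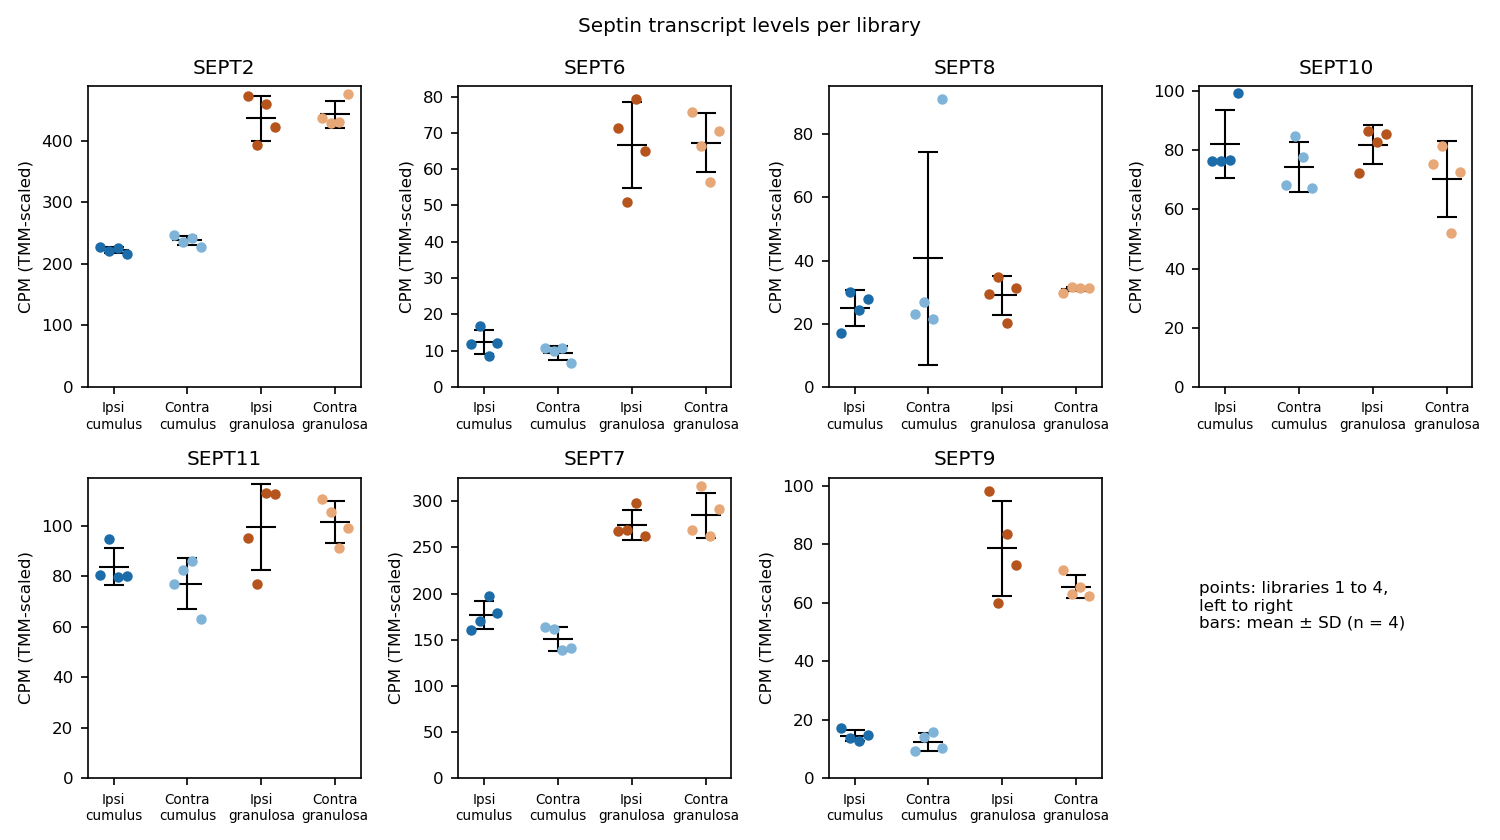
Level of each septin gene in CPM after TMM scaling (vertical axis, from 0) in the 4 groups, with 1 point per library and bars for mean ± SD (n = 4). For SEPT2, SEPT6, SEPT7 and SEPT9 every cumulus library lies below every granulosa library, and for SEPT8 contralateral cumulus library 4 stands at 91.1 CPM.

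SEPT2 is a core subunit of the rod and, in cultured human cells, is needed for the furrow to close at division. It stood at 227, 222, 225 and 215 CPM in the ipsilateral and 247, 236, 241 and 228 CPM in the contralateral cumulus libraries. In granulosa cells it stood at 473, 393, 459 and 422 CPM in the ipsilateral and 437, 428, 430 and 476 CPM in the contralateral libraries. No cumulus library reached the lowest granulosa library. In cumulus libraries the mean was 230 ± 10.4 CPM, and in granulosa libraries 440 ± 28.2 CPM (SD, n = 8 each). The log2 fold change was -0.93 ± 0.05 SE, with an adjusted p of 5.12e-10 by edgeR's quasi-likelihood test.

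In the SEPT6 subgroup, SEPT6 and SEPT11 were lower in cumulus cells, and SEPT8 and SEPT10 did not pass. SEPT6 stood at 11.9, 16.8, 8.54 and 12 CPM in ipsilateral and 10.6, 9.74, 10.7 and 6.58 CPM in contralateral cumulus libraries. The granulosa values were 71.4, 51.0, 79.3 and 64.9 CPM on the ipsilateral and 75.8, 66.5, 56.4 and 70.5 CPM on the contralateral side. The groups were far apart, with the highest cumulus library at 16.8 and the lowest granulosa library at 51.0 CPM. The log2 fold change of SEPT6 was -2.64 ± 0.15 SE (adjusted p = 5.12e-10 by edgeR), and 6.49% of all entries tested had a lower one.

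SEPT11, the close relative of SEPT6, stood at 80.6, 94.7, 79.8 and 80.2 CPM in ipsilateral and 76.9, 82.4, 86.0 and 63.2 CPM in contralateral cumulus libraries. Granulosa libraries held 95.1, 77.1, 113 and 112 CPM on the ipsilateral and 111, 105, 91.3 and 99.0 CPM on the contralateral side. The cell types overlapped through ipsilateral granulosa library 2, at 77.1 CPM, and contralateral granulosa library 3, at 91.3 CPM, which lay below the highest cumulus library, at 94.7 CPM. SEPT11 had a log2 fold change of -0.32 ± 0.09 SE and an adjusted p of 0.00544 by edgeR. With the 8 ipsilateral libraries alone it did not pass (-0.25 ± 0.14, adjusted p = 0.155), and with the 8 contralateral libraries alone it passed (-0.38 ± 0.12, adjusted p = 0.0249). The reference lists SEPT11 as an older name of both SEPTIN11 and SEPTIN6, so the identity of this entry rests on its symbol, and its levels were not those of the SEPT6 entry.

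SEPT10 had 76.3, 76.4, 76.8 and 99.4 CPM in ipsilateral and 68.2, 84.8, 77.8 and 67.1 CPM in contralateral cumulus libraries. It had 72.3, 86.6, 83.0 and 85.7 CPM in ipsilateral and 75.3, 81.4, 52.0 and 72.6 CPM in contralateral granulosa libraries. The cell types overlapped over most of their range. The log2 fold change was 0.04 ± 0.10 SE (adjusted p = 0.705 by edgeR), with a 95% interval of the cumulus to granulosa ratio from 0.896 to 1.19.

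SEPT8 stood at 17.1, 30.2, 24.5 and 27.8 CPM in ipsilateral and 23.2, 27.0, 21.4 and 91.1 CPM in contralateral cumulus libraries. Its granulosa values were 29.6, 34.8, 20.3 and 31.3 CPM on the ipsilateral and 29.9, 31.6, 31.2 and 31.3 CPM on the contralateral side. A single value set its mean, since contralateral cumulus library 4 held 3.02 times the highest of the other 7 cumulus libraries. The oocyte genes BCL2L10 (112 CPM) and H1FOO (92.6 CPM) were high in the same library, and their part in the SEPT8 value was not tested. Contralateral cumulus library 2 held them at 9.64 CPM (BCL2L10) and 8.96 CPM (H1FOO), with SEPT8 at 27.0 CPM. The log2 fold change was 0.09 ± 0.26 SE (adjusted p = 0.794 by edgeR) with all libraries. Without contralateral cumulus library 4 it was -0.30 ± 0.14 SE (adjusted p = 0.0712), and 6 of the other cumulus libraries lay above 20.3 CPM, the lowest granulosa value.

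SEPT7, the member shared by all standard rods, stood at 161, 171, 197 and 179 CPM in ipsilateral and 163, 162, 139 and 141 CPM in contralateral cumulus libraries. It stood at 267, 268, 298 and 263 CPM in ipsilateral and 269, 317, 262 and 291 CPM in contralateral granulosa libraries. All cumulus libraries lay below all granulosa libraries, with 197 CPM against 262 CPM at the boundary. Cumulus libraries averaged 164 ± 19.0 CPM and granulosa libraries 280 ± 20.1 CPM (SD, n = 8 each). SEPT7 had a log2 fold change of -0.77 ± 0.06 SE and an adjusted p of 3.89e-08 by edgeR.

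SEPT9 occupies a place in the longer form of the rod and is known for binding actin and microtubules through its long N-terminal part. It stood at 17.2, 13.8, 12.8 and 14.7 CPM in ipsilateral and 9.30, 14.2, 15.8 and 10.4 CPM in contralateral cumulus libraries. Granulosa libraries held 98.4, 59.9, 83.4 and 73.0 CPM on the ipsilateral and 71.4, 63.1, 65.3 and 62.4 CPM on the contralateral side. The highest cumulus library, at 17.2 CPM, was far below the lowest granulosa library, at 59.9 CPM. Its log2 fold change of -2.41 ± 0.13 SE had an adjusted p of 3.07e-10 by edgeR, and 7.22% of all entries tested had a lower one.

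In all, 5 of the 7 members were called lower in cumulus cells at an adjusted p under 0.05, 0 were called higher and 2 were not called. Over all 18038 entries tested, 60.2% were called in either direction, 29.9% higher and 30.3% lower in cumulus cells. A share of 5 in 7 called in either direction is therefore near that of all entries. The median log2 fold change was -0.77 over the 7 members and 0.03 over all entries tested. For 4 members, SEPT2, SEPT6, SEPT7 and SEPT9, every cumulus library lay below every granulosa library, as did 14.5% of all entries tested.

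**Figure D2:**
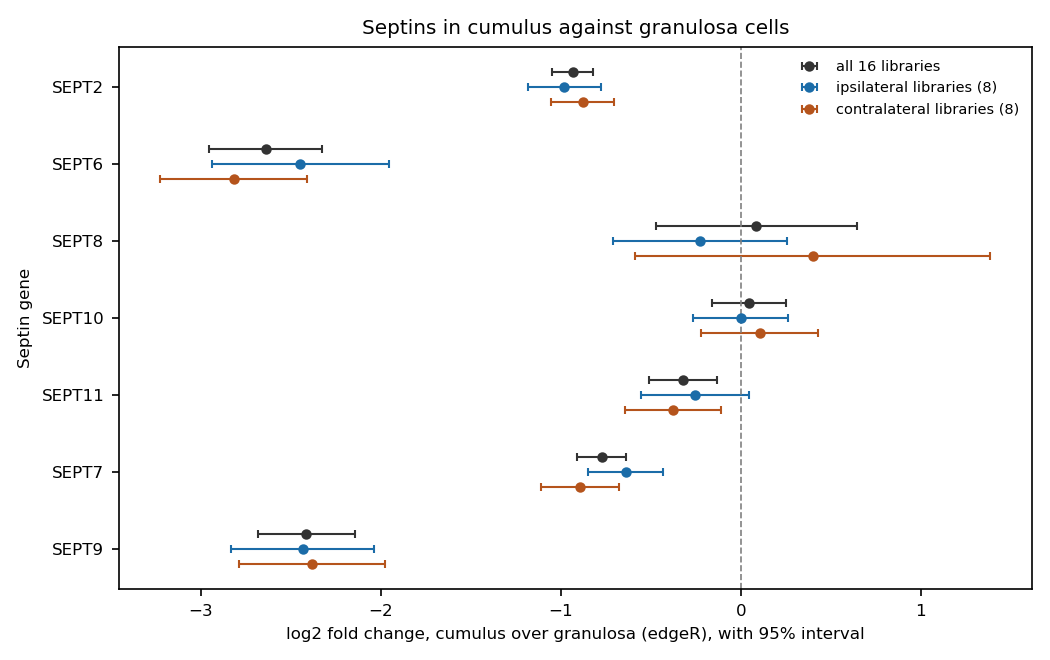
Log2 fold change of each septin, cumulus over granulosa, by edgeR (horizontal axis) with its 95% interval, for all 16 libraries, the 8 ipsilateral and the 8 contralateral libraries. SEPT6 and SEPT9 lie between -2.82 and -2.38 in all 3 fits, and SEPT2 and SEPT7 between -0.98 and -0.64. The intervals of SEPT8 and SEPT10 include 0 in all 3 fits, and that of SEPT11 includes 0 in the fit of the ipsilateral libraries.

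The cell type difference was also seen on each side of the ovary pair. SEPT6 had a log2 fold change of -2.45 ± 0.22 SE in ipsilateral and -2.82 ± 0.18 SE in contralateral libraries. For SEPT9 the values were -2.43 ± 0.18 and -2.38 ± 0.18, and for SEPT2 -0.98 ± 0.09 and -0.88 ± 0.08. SEPT7 had -0.64 ± 0.09 in ipsilateral and -0.89 ± 0.10 in contralateral libraries. These 4 genes passed on each side (largest adjusted p 4.59e-04, for SEPT7 in ipsilateral libraries), where 44.3% and 47.6% of all entries were called, 23.6% and 23.0% as lower in cumulus cells. Among alternatives of scaling, filter, tool, libraries and entries, these 4 passed in all 27 that were run. The alternatives of entries kept exact repeats once, or took Ensembl entries with nearly the same counts in place of the septins. The latter could hardly give another outcome.

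These libraries are bulk pools, so fewer cells of a type and less RNA per cell cannot be told apart. A marker of blood moved with the cell type: PF4, a platelet chemokine, ran from 0 to 0.243 CPM in cumulus and from 0.449 to 3.91 CPM in granulosa libraries. It was the only 1 of 8 leukocyte and platelet markers found by name. MUC16, the only 1 of 3 surface epithelium markers found, ran from 0 to 2.09 CPM in cumulus and from 0 to 44.3 CPM in granulosa libraries. Septins such as SEPT6 and SEPT9 are also abundant in blood cells, and the part of such cells in the septin difference was not tested. Within granulosa cells PF4 ran from 0.449 to 1.36 CPM in ipsilateral and from 0.975 to 3.91 CPM in contralateral libraries. SEPT9 averaged 78.7 ± 16.3 CPM in the ipsilateral and 65.6 ± 4.06 CPM in the contralateral ones (SD, n = 4 each). SEPT6 averaged 66.6 ± 11.9 CPM in the ipsilateral and 67.3 ± 8.18 CPM in the contralateral ones (SD, n = 4 each). A relation of PF4 to either septin among granulosa libraries was not tested.

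Because septins share rods, each member was also set against SEPT7 within a library, which makes the comparison independent of library scaling. Per 100 counts of SEPT7, SEPT6 had a median of 6.59 counts in cumulus (4.34 to 9.83) and 24.4 counts in granulosa libraries (19.0 to 28.2). SEPT9 had 8.17 counts in cumulus (5.69 to 11.3) and 25.7 counts in granulosa libraries (19.9 to 36.8). For both genes the cell types did not overlap, so SEPT6 and SEPT9 were lower in cumulus cells by more than SEPT7 was.

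The other members had a different balance. SEPT10 had a median of 47.5 counts per 100 of SEPT7 in cumulus (39.0 to 56.0) and 27.4 in granulosa libraries (19.8 to 32.6), again without overlap. SEPT11 had 48.6 in cumulus (40.6 to 61.9) and 35.2 in granulosa libraries (28.7 to 42.8), and the ranges overlapped. SEPT2 had 144 in cumulus (115 to 174) and 161 in granulosa libraries (135 to 177), so its ratio to SEPT7 overlapped over most of the range. SEPT8 had 15.5 in cumulus (10.6 to 64.6) and 11.1 in granulosa libraries (6.81 to 13). On the log2 scale, mean cumulus minus mean granulosa ratios were -1.88 for SEPT6, -1.65 for SEPT9, -0.16 for SEPT2, 0.46 for SEPT11, 0.71 for SEPT8 and 0.82 for SEPT10. Without contralateral cumulus library 4 the SEPT8 difference was 0.44. Within the SEPT6 subgroup, then, SEPT6 had a lower mean ratio to SEPT7 in cumulus than in granulosa libraries. SEPT8, SEPT10 and SEPT11 had a higher one. SEPT10 itself was near even between cell types (log2 fold change 0.04), so its higher ratio mirrors the lower SEPT7 (-0.77). SEPT11 itself was lower in cumulus cells (-0.32), but by less than SEPT7 was. SEPT8 itself had 0.09 with all libraries and -0.30 without contralateral cumulus library 4. The higher ratios of these members are thus not higher levels in cumulus cells. Ratios to SEPT7 were not computed for all entries, so the share of entries without overlap is not known. The counts are not per length, so these ratios do not give the number of protein subunits.

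**Figure D3:**
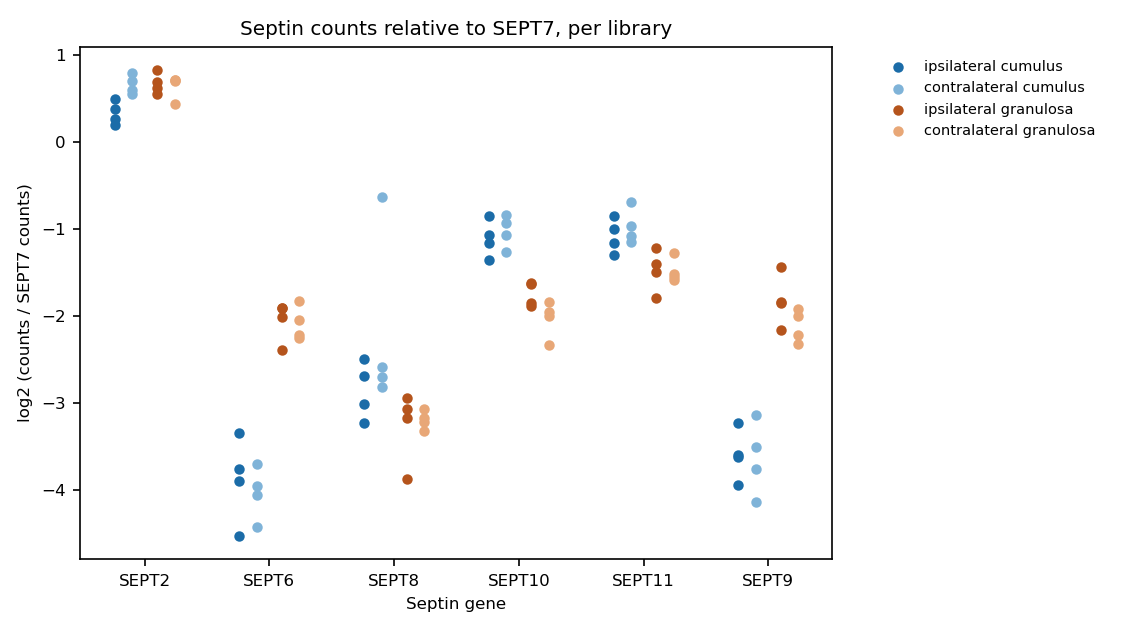
Log2 ratio of each septin's counts to those of SEPT7 in the same library (vertical axis), with 1 point per library in the 4 groups. SEPT6 and SEPT9 lie lower and SEPT10 higher in all 8 cumulus than in all 8 granulosa libraries, and contralateral cumulus library 4 stands apart for SEPT8.

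The second question, which the series' title raises, was whether septins differ with closeness to the corpus luteum. In cumulus cells 0 of 7 members passed edgeR's test, and 0% of 16323 entries were called. SEPT7 came nearest, with 177 ± 15.3 CPM on the ipsilateral and 151 ± 13.1 CPM on the contralateral side (SD, n = 4 each). Its log2 fold change was 0.22 ± 0.09 SE (adjusted p = 0.439 by edgeR), with a 95% interval of the ratio from 1.01 to 1.34. It was the only member with an unadjusted p under 0.05, a level that 11% of all entries reached. Ipsilateral library 1, at 161 CPM, lay below contralateral libraries 1 and 2, so the sides overlapped.

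SEPT2 was the only member whose cumulus sides did not overlap. It stood between 215 and 227 CPM in ipsilateral and between 228 and 247 CPM in contralateral cumulus libraries, and 5.23% of 15965 entries with a mean of at least 1 CPM had no overlap either way. The means were 222 ± 5.18 and 238 ± 7.91 CPM (SD, n = 4 each), and the log2 fold change was -0.10 ± 0.07 SE (adjusted p = 0.589 by edgeR).

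Cumulus SEPT6 averaged 12.3 ± 3.39 CPM on the ipsilateral and 9.40 ± 1.92 CPM on the contralateral side (SD, n = 4 each). Its log2 fold change of 0.38 ± 0.24 SE had an interval of the ratio from 0.909 to 1.87 (adjusted p = 0.561 by edgeR). SEPT9 had 0.23 ± 0.20, SEPT10 0.14 ± 0.12 and SEPT11 0.11 ± 0.11 in cumulus cells, none of which passed (smallest adjusted p among these 3, 0.683). SEPT8 had -0.72 ± 0.50 SE (adjusted p = 0.608), and 0.05 ± 0.19 SE (adjusted p = 0.960) without contralateral cumulus library 4.

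**Figure D4:**
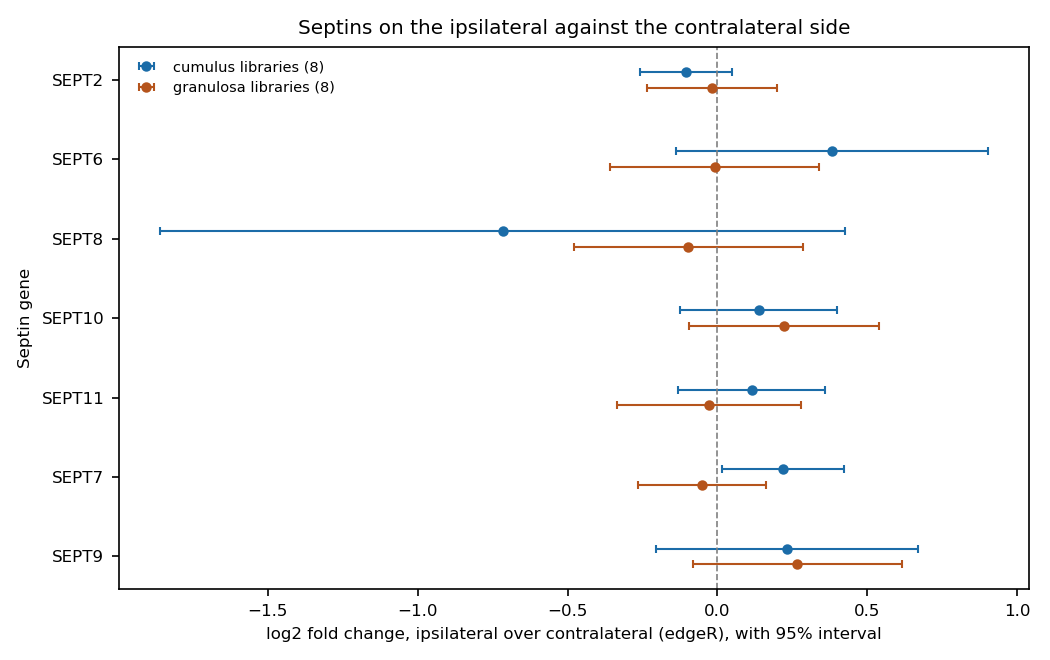
Log2 fold change of each septin, ipsilateral over contralateral, by edgeR (horizontal axis) with its 95% interval, in the 8 cumulus and the 8 granulosa libraries. No septin passed at an adjusted p under 0.05, and the widest interval is that of SEPT8 in cumulus cells, from -1.86 to 0.43.

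In granulosa cells 0 of 7 members passed and 0% of 16411 entries were called, and 0 of 7 members had sides without overlap, against 2.22% of entries with a mean of at least 1 CPM. SEPT9 averaged 78.7 ± 16.3 CPM on the ipsilateral and 65.6 ± 4.06 CPM on the contralateral side (SD, n = 4 each), a log2 fold change of 0.27 ± 0.16 SE. SEPT10 averaged 81.9 ± 6.58 and 70.3 ± 12.7 CPM, a log2 fold change of 0.22 ± 0.14 SE. SEPT2, SEPT6, SEPT7, SEPT8 and SEPT11 had log2 fold changes between -0.10 and -0.01. All 7 had an adjusted p of 1 by edgeR after rounding, and 0 had an unadjusted p under 0.05, against 3.53% of all entries. The 95% interval of the ipsilateral to contralateral ratio was 0.781 to 1.26 for SEPT6, 0.718 to 1.22 for SEPT8 and 0.944 to 1.53 for SEPT9.

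The third question was whether the side difference itself differs between the cell types. No member passed, and 0% of 18038 entries were called. SEPT7 was the only member with an unadjusted p under 0.05, a level reached by 7.53% of all entries, with a side difference in cumulus minus that in granulosa cells of 0.28 ± 0.13 SE (adjusted p = 0.659 by edgeR). SEPT6 had 0.40 ± 0.28 and SEPT8 -0.61 ± 0.53, which became 0.16 ± 0.27 without contralateral cumulus library 4.

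Among libraries of 1 group, the members did not move as 1 block. Pearson's r was computed on the deviations of log2 CPM from the 4 group means over 16 libraries, as a description, since all members share the same libraries and scaling. Over the 21 pairs the median r was 0.18, from -0.54 to 0.79, with 13 above 0. The pair SEPT6 and SEPT11 had the highest r, 0.79 (Spearman's rho 0.74), and it was 0.79 without the 2 libraries farthest from the median of SEPT6. It was 0.84 in the 8 cumulus and 0.82 in the 8 granulosa libraries. SEPT8 had a negative r with each of the other 6 members when all libraries were used. Leaving out library 4 of contralateral cumulus and library 3 of contralateral granulosa cells, the median over pairs was 0.04, and SEPT6 and SEPT11 had 0.68. SEPT8 then had an r of 0.07 with SEPT7 and 0.29 with SEPT10, and its r with SEPT6 was -0.15 in place of -0.53.

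**Figure D5:**
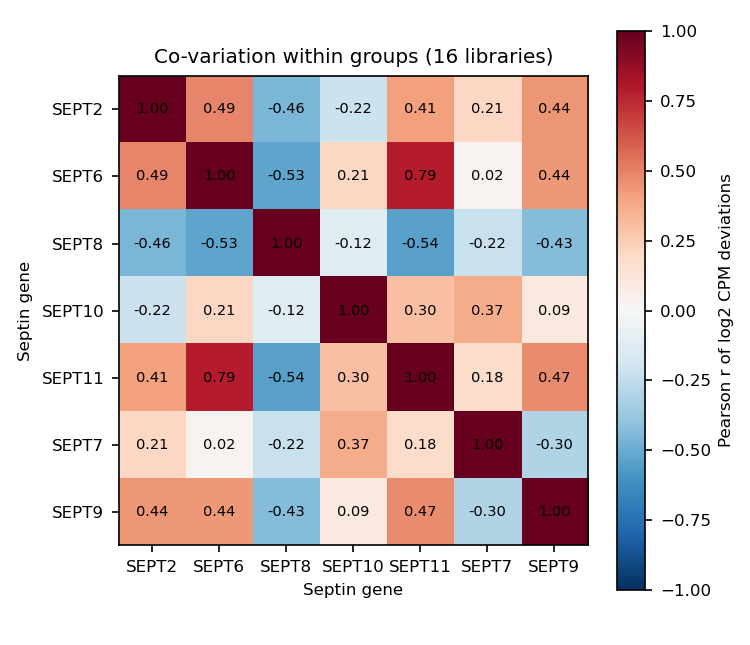
Pearson's r between septins of log2 CPM deviations from the group means over 16 libraries, with colour and number giving r. The pair SEPT6 and SEPT11 has 0.79, and SEPT8 is negative with every other septin over all 16 libraries, but has 0.07 with SEPT7 and 0.29 with SEPT10 without library 4 of contralateral cumulus and library 3 of contralateral granulosa cells.

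The 6 other entries with a septin symbol give the context of the family. SEPT5, of the SEPT2 subgroup, was lower in cumulus libraries, with 5.39 ± 0.490 CPM against 13.3 ± 3.84 CPM in granulosa libraries (SD, n = 8 each), a log2 fold change of -1.29 ± 0.17 SE (adjusted p = 5.39e-06 by edgeR). SEPT4, of the same subgroup, had 11.6 ± 2.07 CPM in cumulus libraries against 7.18 ± 5.13 CPM in granulosa libraries (SD, n = 8 each), with 0.74 ± 0.32 SE and an adjusted p of 0.0533 by edgeR. It did not pass in the ipsilateral libraries alone (0.17 ± 0.47, adjusted p = 0.795), and it was higher in cumulus cells in the contralateral libraries alone (1.32 ± 0.36, adjusted p = 0.0116). The test of the difference between these did not pass (adjusted p = 0.703). SEPT12, known in mammals for the sperm annulus, averaged 8.02 ± 1.18 CPM in cumulus and 8.88 ± 1.64 CPM in granulosa libraries (adjusted p = 0.419 by edgeR). SEPT1 stood at 14.4 CPM in contralateral cumulus library 4, where SEPT8 was also high, and between 0.548 and 2.28 CPM in the other 7 cumulus libraries. Its log2 fold change, cumulus over granulosa, was 0.06 ± 0.51 SE (adjusted p = 0.928 by edgeR). The high value in library 4 was not itself tested. SEPT3 and SEPT14 did not pass the filter on low counts, with at most 8 counts in any library. With the members, 6 of the 11 septins tested were lower and 0 higher in cumulus cells over all 16 libraries, where 30.3% of all entries were lower and 29.9% higher.

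Of 48 genes that bind, regulate or work beside septins, such as the CDC42 effector proteins, anillin and non-muscle myosins, RHOB was the only 1 found by name. This small GTPase stood at 70.5 ± 13.7 CPM in cumulus libraries against 76.1 ± 17.3 CPM in granulosa libraries (SD, n = 8 each), and its log2 fold change was -0.11 ± 0.13 SE (adjusted p = 0.498 by edgeR).

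Among 697 named entries other than septins, the pattern most like a member over the 16 libraries was found by Pearson's r of log2 CPM. This r mostly follows the difference between cell types, so r within the 8 cumulus and the 8 granulosa libraries is given beside it. For SEPT6 it was PQLC3 (0.99, and 0.64 and 0.68 within the cell types), and for SEPT9 it was MARCH3, a membrane ubiquitin ligase (0.98, and 0.66 and 0.49). SEPT11 was most like FBXL7, an F-box protein gene (0.88, and 0.73 and 0.80). SEPT7 was most like ADNCR (0.95, and 0.26 and 0.67) and SEPT10 like H3F3C, a histone gene (0.60, and 0.58 and 0.71). SEPT8 was most like MRVI1 (0.85, and 0.94 and 0.21), with a Spearman's rho of 0.40. MRVI1 stood at 11.8 CPM in contralateral cumulus library 4 and at most at 1.02 CPM in the other 7 cumulus libraries, and without that library r was 0.40, so this likeness rests on 1 library.

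Each member also had an Ensembl entry with nearly the same counts. For SEPT9 the counts were identical in all 16 libraries. For SEPT2, SEPT6, SEPT7 and SEPT10 they lay within 5% or 2 counts in all 16, for SEPT11 in 14 and for SEPT8 in 12. Taken in place of the septin entries, these entries gave the same 5 calls between cell types, with log2 fold changes of -2.64 for SEPT6, -0.77 for SEPT7 and -0.33 for SEPT11. They were picked for their near-equal counts, so the same calls had to follow and add no support. On the reference, SEPT2 overlaps HDLBP, SEPT8 overlaps CCNI2 and SEPT6 overlaps SOWAHD, all protein-coding, and because strand was not recorded, part of the reads counted for either gene of a pair could be the other's.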

How the data were processed

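RNA was measured by poly(A) RNA-seq in 16 bovine libraries. Per the labels' protocols, cDNA was made with SMART-Seq HT and libraries with Nextera XT, and read as single-end 75 bp. These kits do not mark strand. STAR, Trimmomatic, FastQC and DESeq2 are the tools named in the submitters' processing notes. Which program counted the reads, on which build and annotation, is not given in the sources used here. Raw counts per gene entry are what the authors deposited, and columns were matched to samples by title.

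Counts were tested with edgeR 4.0.16 (limma 3.58.1, R 4.3.3) after filterByExpr (minimum count 10, minimum total 15) and TMM scaling. The robust quasi-likelihood test was used, with Benjamini-Hochberg adjustment over all entries tested, and calls were made at 0.05. Side comparisons used 8 libraries, the others all 16 with 4 group means. SE was taken from the log2 fold change and the F statistic. DESeq2 1.42.0, limma-voom, other scalings and filters and left-out libraries served as alternatives. The edgeR fits were also run on simulated data, whose outcome is not given here. For the likeness of patterns, 0.5 CPM was added before log2.

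A count of 0 allows up to 3 counts, between 0.137 and 0.298 CPM by library, for counting error only, since PCR copies are not independent molecules. Replicates were compared first, and their chi-square per gene was between 12.9 and 78.7, so none was a repeat. The labels do not pair pools across groups, and p values measure the spread between pools. Named were the 7 members, the other septins, listed partners found by name and the entry most like each member, which for SEPT2 is not reported here. The members and lists were chosen with earlier results of these data known. Names and overlaps come from RefSeq genes of ARS-UCD2.0, and the overlaps were found from the start and end of each gene there.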

Additional observations from a re-analysis of the deposited data

Results flagged for a closer look

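Each of the 7 septins was examined in each of the 4 groups for a library far from the other 3, which gave 28 groups. Chance alone marks about 1 in 20 groups, and 4 were marked. SEPT8 stood at 91.1 CPM in contralateral cumulus library 4 and between 21.4 and 27.0 CPM in the other 3, and this library also held the oocyte genes BCL2L10 (112 CPM) and H1FOO (92.6 CPM). SEPT10 stood at 99.4 CPM in ipsilateral cumulus library 4 and between 76.3 and 76.8 CPM in the other 3. SEPT11 stood at 94.7 CPM in ipsilateral cumulus library 2 and between 79.8 and 80.6 CPM in the others, and SEPT6 was also highest there among ipsilateral cumulus libraries, at 16.8 CPM. SEPT7 stood at 298 CPM in ipsilateral granulosa library 3 and between 263 and 268 CPM in the others.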

How the results depend on the processing

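The 5 calls among the members between cumulus and granulosa cells held under each alternative run, except SEPT11 with ipsilateral libraries alone (-0.25, adjusted p = 0.155 by edgeR). Leaving out each library in turn gave 5 calls each time. None of the 7 members was called for side, or for the difference of side effects, under any alternative run. The other septin entries were not followed in the alternatives. DESeq2 called 120 entries for side in cumulus cells, 1 in granulosa cells and 1 for the difference of side effects, where edgeR called 0. None of these was 1 of the 7 members. DESeq2 was run without the count filter, on 27631, 27033 and 29213 entries, against 16323, 16411 and 18038 for edgeR. Without a filter edgeR had the same numbers of entries as DESeq2 and also called 0. At an unadjusted p under 0.05 edgeR had 1791, 579 and 1358 entries. Scaling by library totals called 10945 entries between cell types, 55.2% of them higher in cumulus cells, and the 5 septin calls were kept. The use of the near-equal Ensembl entries, and the SEPT8 ratio to SEPT7 without contralateral cumulus library 4, were chosen after seeing the data. No paired analysis was possible because the labels give no shared replicate numbers. Septins with few counts (SEPT3, SEPT14) were not testable at this depth.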
